A study of Mus musculus with 53 samples.

Results

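The genes described here are 9 transcriptional targets of bone morphogenetic protein (BMP) signalling, namely Id1, Id2, Id3, Id4, Smad6, Smad7, Smad9, Atoh8 and Bambi. They were chosen by symbol from the 3 deposited count tables, and all 9 were found among the 36410 genes that the tables share. BMP ligands bind receptor kinases at the cell surface, which phosphorylate SMAD1, SMAD5 and SMAD9, and these enter the nucleus with SMAD4 and switch on a compact set of genes. Several of those genes feed back on the pathway: SMAD6 and SMAD7 are inhibitory SMADs and BAMBI is a decoy receptor without a kinase. The Id genes encode inhibitors of DNA binding that sequester E proteins, and ATOH8 is a transcription factor. In liver the pathway is best known for its control of hepcidin, the iron hormone. Hepatocytes make it from the gene Hamp, in answer to BMP ligands released by sinusoidal endothelial cells. Hamp2 is a related mouse gene.

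The study made 53 libraries from messenger RNA of whole liver, in 3 experiments with C57BL/6J males. For diet, 9 wild-type mice ate a low-fat diet, while 7 wild-type mice and 7 labelled Bmp8b knockout ate a Western diet (TD88137), for 32 weeks in mice described as 9 weeks old. In the CCl4 experiment, 6 wild-type mice received olive oil, and 4 wild-type and 6 labelled knockout mice received carbon tetrachloride (CCl4, a toxin that kills hepatocytes), injected at 2 ul per g body weight with the oil or with CCl4 mixed into it, in mice of 16 weeks culled at day 3. The hepatectomy experiment, also in mice of 16 weeks, held 5 wild-type pieces resected at surgery (day 0), 5 wild-type livers at day 3 and 4 labelled knockout livers at day 3. The labels describe wild-type mice as littermates and do not give the knockout allele. Knockout livers without a challenge were not analysed here.

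Bmp8b, the targeted gene, was not lower in the labelled knockout livers. Its level ran from 0.520 to 1.79 CPM (a measure of a gene's reads relative to library size, after TMM normalization) in wild-type and from 0.718 to 2.23 CPM in labelled knockout livers on Western diet. The ranges were 0 to 1.33 and 0.266 to 2.62 CPM after CCl4, and 0.358 to 1.31 and 1.08 to 2.63 CPM at day 3 of hepatectomy. The term labelled knockout is therefore used throughout, and the direction of any difference by label rests on the labels alone. Diet libraries were the deepest (8963187 to 15196537 counts), ahead of those for CCl4 (2661699 to 6364414) and hepatectomy (2450358 to 6914274). Of the CCl4 livers, wild-type liver 34 and labelled knockout liver 35 stood apart, with sums of 8 proliferation genes of 42.8 and 50.8 CPM against 223 to 770 CPM in the other 8. Sums of 12 endothelial markers ranged from 176 to 494 CPM over the 53 livers, and none of these markers was at 0 throughout a group. In whole liver, fewer cells of a type and less RNA per cell cannot be told apart.

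An entry for 6 of the 9 genes was found in the RefSeq promoter table (GRCm38.p6). In the 250 bases before the start of transcription, GGCGCC, a GC-rich sequence that SMAD1 and SMAD5 can bind and that reads the same on both strands, occurred in 3 of the 6, compared with 9.59% of 32851 promoter windows of the same length. The core GTCT (or AGAC, its other strand) occurred in 4 of the 6, compared with 82.9% of all windows. The stretches around GGCGCC are shown because Id2 and Smad9 are among the genes that were called below. Each is 30 bases long, 5′ to 3′ on the strand of the gene, with GGCGCC in capitals. A match describes the letters only.
Id2, chr12:25096306-25096335, minus strand: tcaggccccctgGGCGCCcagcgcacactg
Id4, chr13:48260956-48260985, plus strand: ctcgggttgcccGGCGCCccgccctcgcca
Smad9, chr3:54755519-54755548, plus strand: gcacggccgcctGGCGCCcttccagcgcgg
The first G of the match lies 231, 148 and 51 bases before the RefSeq start in Id2, Id4 and Smad9. For Id2 that start lies inside the longer gene span of GENCODE vM21, so the stretch is upstream of the RefSeq start only, and the Id2 window overlaps 1 annotated exon. None of the 3 stretches overlaps an exon of GENCODE vM21. Exons of Id4 overlap those of A330033J07Rik and Gm49291 on the opposite strand, and whether counting used strand is not given in the sources used here, so reads of these genes may be mixed.

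Per kilobase of exon, Id2 was the most abundant of the 9 genes in each control group, with mean levels of 56.7 CPM per kb on low-fat diet, 63.8 after olive oil and 68.1 at day 0. Id3 followed with 23.02, 38.1 and 35.98 CPM per kb, and Atoh8 with 6.62, 7.59 and 4.92. Id1, Smad7 and Smad9 lay between 1.72 and 6.92 CPM per kb, and their order differed between the control groups. The inhibitory Smad6, the decoy receptor Bambi and Id4 closed the order in all 3 groups, at 0.713 to 0.926, 0.547 to 0.686 and 0.177 to 0.352 CPM per kb. The low levels set what could be tested. Over the 53 livers Id2 had 160 to 2182 counts, whereas Id1 had 3 to 193, Smad6 had 2 to 76, Bambi had 1 to 83 and Id4 had 0 to 30. Id4 had no count in 3 olive oil and 2 labelled knockout CCl4 livers, and 3 counts would equal 0.714 to 0.973 CPM in those libraries. All 9 genes passed the filter on low counts in the diet experiment, 8 in the CCl4 experiment (not Id4) and 6 in the hepatectomy experiment (not Id4, Smad6 or Bambi).

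**Figure D1:**
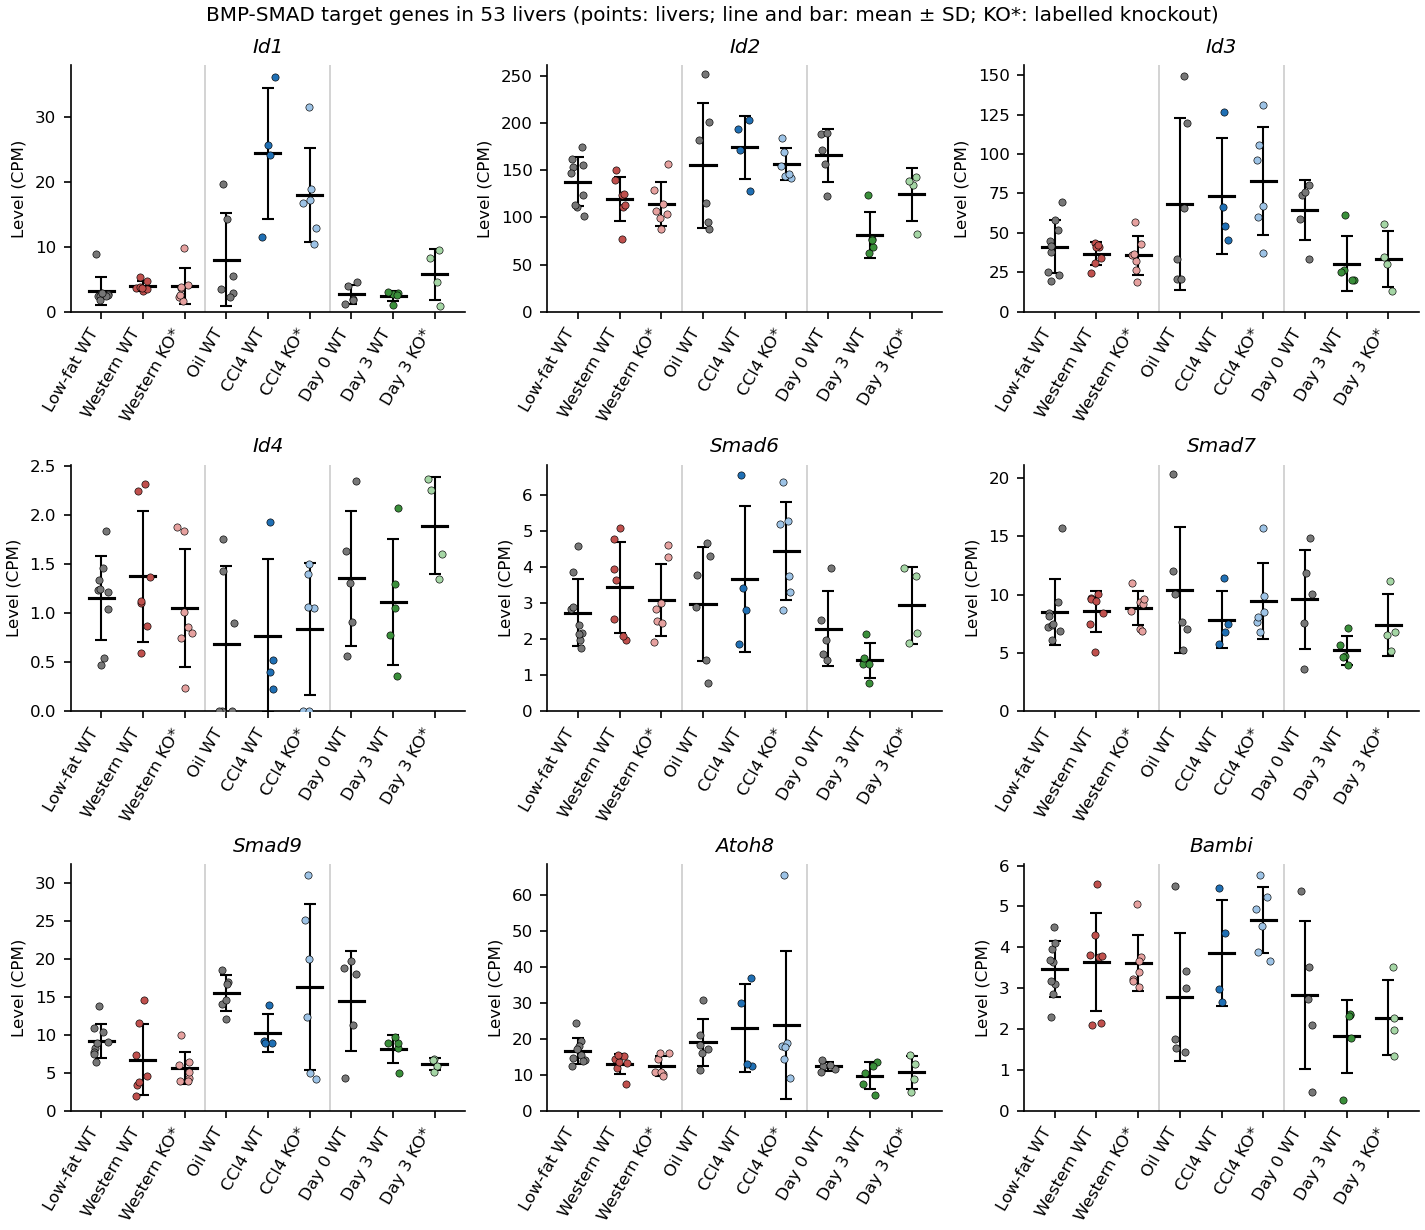
Level of each gene in CPM (vertical axis, from 0) in the 53 livers by group, with 1 point per liver and the mean ± SD as line and bar, lower bars ending at the axis. Id1 is highest in the CCl4 livers, with 11.5 to 36.3 CPM in wild type and 10.5 to 31.5 CPM in labelled knockout, and Id2 is lowest in wild-type livers at day 3, with 61.9 to 124 CPM.

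Id1 is the gene most often read as a sign of BMP signalling, and lies on chromosome 2 from 152736251 to 152737410 (GRCm38, ENSMUSG00000042745). On low-fat diet its mean level was 3.20 ± 2.14 CPM (SD, n = 9). Western diet livers had 3.98 ± 0.777 CPM in wild type and 3.98 ± 2.75 CPM in labelled knockout (n = 7 each). In the CCl4 experiment it was 8.03 ± 7.23 CPM (n = 6) after oil, 24.4 ± 10.1 (n = 4) in wild-type and 18.0 ± 7.32 (n = 6) in labelled knockout livers after CCl4. In the hepatectomy experiment it was 2.70 ± 1.46 CPM (n = 5) at day 0, 2.46 ± 0.799 (n = 5) in wild-type and 5.77 ± 3.93 (n = 4) in labelled knockout livers at day 3. The CCl4 groups had the highest mean levels of the 9 groups. The experiments were counted and normalized separately, so levels are set side by side across them without a test.

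Id1 rose after CCl4 in wild-type livers, the only one of the 8 genes tested to do so. The 4 CCl4 livers had 36.3, 25.7, 11.5 and 24.2 CPM of Id1 (livers 04, 05, 07 and 34). The olive oil livers had 5.47, 2.86, 2.32, 14.3, 19.6 and 3.52 CPM (livers 24, 26, 27, 28, 29 and 30). Of the 4 CCl4 livers, 3 lay above every oil liver, and liver 07 lay below oil livers 28 and 29, so the groups overlapped. The level was 2.98-fold higher (log2 fold change 1.58, SE 0.510, edgeR quasi-likelihood test, adjusted p = 0.0384). In the same comparison 11.1% of 11663 genes rose. The median log2 fold change was 0.21 over the 8 genes and 0.05 over all genes tested. The other 7 genes were not called, with log2 fold changes from -0.60 (Smad9) upward. Id4, too low for that test, had 0.772 ± 0.786 CPM after CCl4 and 0.683 ± 0.797 CPM after oil (n = 4 and 6, exact permutation test, p = 0.686).

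The rise of Id1 rested on few livers. Leaving out 1 liver at a time ended the call in 7 of 10 fits (oil livers 24, 26, 27 and 30, CCl4 livers 04, 05 and 34), with log2 fold changes from 1.32 to 2.09 over the 10 (without oil liver 29). Without the livers that stood apart, 34 and 35, it was 1.56 (adjusted p = 0.0327). The i5 index, a barcode read with each library, was not spread evenly: D503 held CCl4 livers only. Within index D505, which held oil livers 28, 29 and 30 and CCl4 liver 34, the log2 fold change of Id1 was 0.87 (SE 0.597, adjusted p = 0.290), where the lone CCl4 liver is assumed to vary like the other livers of that fit. These fits within an index were added after the data were seen.

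Among the olive oil livers Id2, Id3, Id4 and Atoh8 were higher in every D505 liver than in every D504 liver. Id2 had 115, 87.6 and 94.95 CPM in the D504 livers 24, 26 and 27, and 201, 252 and 182 CPM in the D505 livers 28, 29 and 30. Id3 had 33.7, 20.9 and 20.8 CPM in the former and 120, 149 and 65.4 CPM in the latter. Id4 had no count in the 3 D504 livers and 0.901 to 1.76 CPM in the 3 D505 livers. Atoh8 had 11.2 to 17.2 CPM in the former and 18.4 to 30.6 CPM in the latter. The livers of the indexes overlapped in the other 5 genes, among them Id1 (2.32 to 5.47 and 3.52 to 19.6 CPM). Over all 11663 genes tested, 12.9% were higher in every D505 than in every D504 oil liver, and 25.6% did not overlap in either direction. The summed markers of 3 lists split the same way: endothelial (176 to 200 CPM in D504, 322 to 382 CPM in D505), stellate (222 to 298 and 436 to 548 CPM) and TGF-beta target genes (55.8 to 71.4 and 96.1 to 115 CPM). The sums of the macrophage, lymphocyte, bile duct, hepatocyte and proliferation lists overlapped between the indexes. The part of these lists in the levels of the targets was not tested. CCl4 livers 34 and 35, also of index D505, had the highest Id3 of the CCl4 livers, 127 and 131 CPM, and endothelial sums of 388 and 494 CPM. CCl4 liver 35 also had the highest Atoh8 of all 53 livers, 65.3 CPM against 4.47 to 36.8 CPM in the others.

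**Figure D2:**
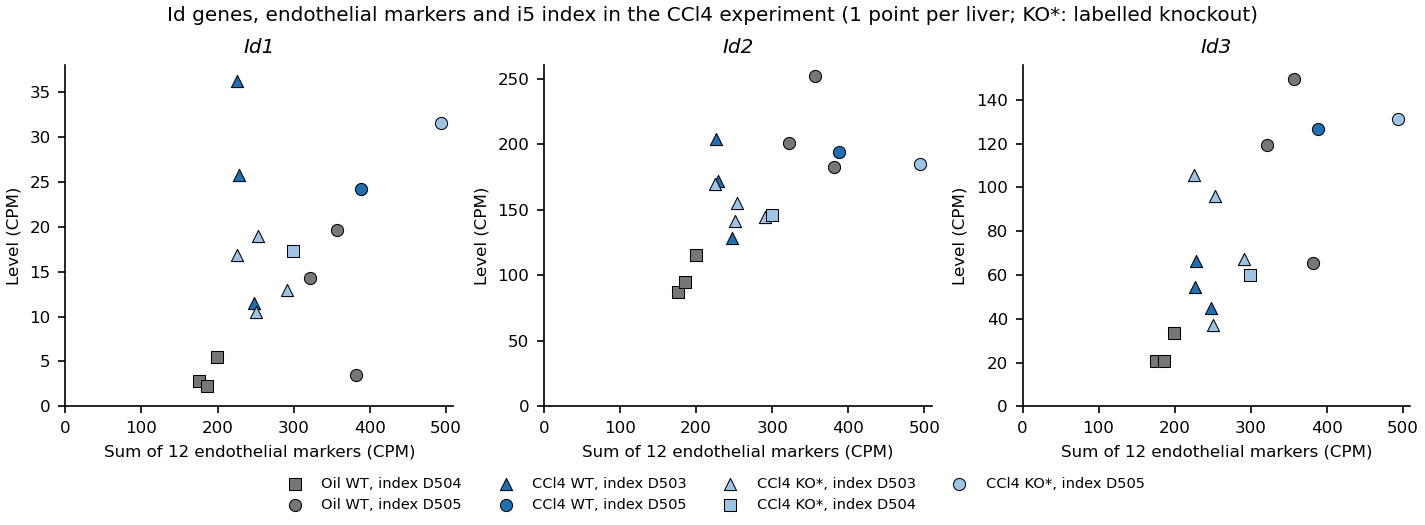
Level of Id1, Id2 and Id3 (vertical axes, CPM from 0) against the summed level of 12 endothelial markers (horizontal axis, CPM from 0) in the 16 livers of the CCl4 experiment, with 1 point per liver, colour for the group and shape for the i5 index. The oil livers of index D504 lie at the lower left, with Id3 of 20.8 to 33.7 CPM, and those of D505 lie to the right, with 65.4 to 149 CPM.

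In wild-type livers after CCl4, 1296 of all 11663 genes tested rose and 1035 fell. Upstream of the targets, edgeR called 0 of 21 genes tested in that comparison (6 ligands, 10 receptors or co-receptors and 5 SMAD effectors). Of these, 1 had an unadjusted p under 0.05, Tfr2 (log2 fold change -0.60, SE 0.217, adjusted p = 0.0606), the transferrin receptor that takes part in hepcidin control. Of 7 antagonists and modulators tested, 2 rose and 1 fell: Fstl1, a secreted follistatin-like glycoprotein, by 2.25 (log2, SE 0.342, adjusted p = 0.000695), Bmper, a secreted BMP-binding protein, by 6.19 (SE 2.01, adjusted p = 0.0388), and Tmprss6, a hepatocyte protease that cleaves the co-receptor hemojuvelin, fell by 0.97 (SE 0.207, adjusted p = 0.00460). Bmper was not evenly expressed, with 0.175 to 165 CPM in the 4 CCl4 livers. Hamp2 fell by 3.95 (SE 1.05, adjusted p = 0.0153), while the hepcidin gene Hamp had a log2 fold change of 0.59 (SE 0.582, adjusted p = 0.505). Of the 3 E protein genes, which encode the partners that ID proteins bind, Tcf12 rose by 0.65 (SE 0.166, adjusted p = 0.0118). All 8 proliferation genes, 5 of 12 stellate and 4 of 10 macrophage markers rose, and of the 12 endothelial markers 2 fell and 10 were not called. Their part in the rise of Id1 was not tested.

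After partial hepatectomy, Id2 and Id3 fell by day 3 in wild-type livers. Id2 (chromosome 12, 25093799 to 25097140, ENSMUSG00000020644) had 123, 189, 156, 190 and 172 CPM at day 0 (mice 12N, 13, 14, 15 and 16). It had 77.1, 124, 68.3, 75.6 and 61.9 CPM at day 3 (mice 12N, 13N, 14N, 15 and 16). Of the day 3 livers, 4 of 5 lay below every day 0 piece, and mouse 13N lay just above the lowest of them. The level was 2.03-fold lower at day 3 (log2 fold change -1.02, SE 0.177, edgeR adjusted p = 0.000353), and it stayed called in the 10 fits without 1 liver (-1.22 to -0.94).

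Id3 (chromosome 4, 136143497 to 136145755, ENSMUSG00000007872) had 33.4, 74.0, 80.3, 75.7 and 58.8 CPM at day 0 and 20.0, 61.1, 26.1, 20.0 and 25.1 CPM at day 3, in the same order of mice. It was 2.10-fold lower (log2 fold change -1.07, SE 0.326, edgeR adjusted p = 0.0275). Mouse 13N was again the high liver at day 3, and the groups overlapped through it. The call of Id3 was lost with DESeq2 (adjusted p = 0.0547), with robust dispersion (0.110), and in 7 of the 10 fits without 1 liver (day 0 livers 13, 14 and 15, day 3 livers 12N, 14N, 15 and 16).

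All 6 genes tested had a negative log2 fold change at day 3, with a median of -0.83, against a median of -0.0047 over all 11026 genes, of which 7.5% fell. Besides Id2 and Id3, the values were -0.83 for the inhibitory Smad7 (SE 0.340, adjusted p = 0.102) and -0.82 for the signal transducer Smad9 (SE 0.298, adjusted p = 0.0625). Smad9 was called with DESeq2 (adjusted p = 0.0453), without a filter (0.0424) and with robust dispersion (0.0479). Smad9 had 11.3, 19.8, 18.9, 18.1 and 4.31 CPM at day 0 and 8.31, 8.90, 5.01, 9.72 and 8.89 CPM at day 3, in the same order of mice. The day 0 piece of mouse 16 was the low one, and without it the log2 fold change was -1.03 and Smad9 was called (adjusted p = 0.00444). Id1 had a log2 fold change of -0.05 (SE 0.548, adjusted p = 0.968), which turned positive in some settings (0.12 with limma voom).

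The genes below the filter gave no call in the wild-type comparison. Smad6 had 2.29 ± 1.03 CPM at day 0 and 1.40 ± 0.493 CPM at day 3 (n = 5 and 5, exact permutation test, p = 0.0952). Bambi had 2.83 ± 1.81 and 1.82 ± 0.901 CPM (n = 5 and 5, exact permutation test, p = 0.437), and Id4 had 1.36 ± 0.688 and 1.11 ± 0.643 CPM (n = 5 and 5, exact permutation test, p = 0.556). The smallest p these group sizes allow is 0.00794. The i5 indexes of day 0 (D505 and D506) and day 3 (D507) do not overlap, so index and day cannot be told apart. Wild-type livers of the same number at day 0 and day 3 may come from the same mouse, and the tests took them as separate mice.

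By day 3 in wild-type livers, 1088 of all 11026 genes tested rose and 827 fell. Upstream of the targets, 1 of 7 ligand genes rose by day 3: Gdf2, which encodes BMP9, a ligand that circulates in blood, rose by 1.18 (log2, SE 0.239, adjusted p = 0.00153). Of 10 receptor and co-receptor genes, 1 rose: Hjv, the hemojuvelin co-receptor, by 0.35 (SE 0.0964, adjusted p = 0.0145). edgeR called 0 of 5 SMAD effectors, of which Smad5 had an unadjusted p under 0.05. Of 6 antagonists and modulators tested, 2 rose. Fst, encoding follistatin, rose by 2.30 (SE 0.450, adjusted p = 0.00112) and Fstl1 by 2.06 (SE 0.326, adjusted p = 0.000143). Tmprss6 fell by 0.28 (SE 0.0819, adjusted p = 0.0235). Hamp, the hepcidin gene, fell by 2.05 (SE 0.428, adjusted p = 0.00205), from 361 ± 39.3 CPM at day 0 to 87.9 ± 37.9 CPM at day 3 (n = 5 and 5). Beside these changes, 7 of 8 proliferation genes rose, 5 of 12 stellate markers rose and 1 fell, and of the 12 endothelial markers 3 fell and 9 were not called. Of the 8 hepatocyte markers 1 rose, 1 fell and 6 were not called. Their sum did not overlap between the days, at 78239 to 99193 CPM at day 0 and 121260 to 140319 CPM at day 3. Of all 11026 genes, 13.0% did not overlap either. The endothelial sum was 289 to 376 CPM at day 0 and 237 to 338 CPM at day 3. The part of these markers in the lower Id2 and Id3 was not tested.

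Western diet for 32 weeks called none of the 9 targets in wild-type livers, although 37.4% of 13005 genes were called in that comparison. edgeR and DESeq2 called 0 of 9, limma voom called Smad9, and 1 gene had an unadjusted p under 0.05 in edgeR. The share of all genes is that of edgeR, and the share for limma voom is not given here. Log2 fold changes ran from -0.47 (Smad9) to 0.34 (Smad6), 5 of them positive, with a median of 0.02 against -0.02 over all genes. The gene nearest to a call was Atoh8, with 12.5, 15.5 and 24.4 CPM (lowest, median and highest of 9) on low-fat and 7.45, 13.5 and 15.5 CPM (of 7) on Western diet. Its log2 fold change was -0.35 (SE 0.152, edgeR adjusted p = 0.0717), and the groups overlapped.

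The value of Id1 on diet rested on 1 liver. Low-fat liver 18 had 8.85 CPM of Id1, while the other 8 low-fat livers had 1.84 to 2.95 CPM and the 7 Western diet livers had 3.14 to 5.34 CPM. With it the log2 fold change was 0.33 (SE 0.317, edgeR adjusted p = 0.434), and without it 0.68 (SE 0.263, adjusted p = 0.0460). Liver 18 was singled out after its Id1 level was seen. Liver 18 also had the highest Id3, Smad6, Smad7 and Atoh8 of the low-fat group, at 69.5, 4.58, 15.7 and 24.4 CPM.

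The diet comparison was also fitted within each index. Within D501, with 4 low-fat and 3 Western diet livers, 28.1% of all genes were called in either direction and 4 of the 9 were called lower: Id2 (log2 fold change -0.61), Id3 (-0.66), Smad9 (-1.08) and Atoh8 (-0.73). Within D502, with 5 low-fat and 4 Western diet livers, 12.1% of all genes were called and 2 of the 9 were called higher, Id1 (0.79, adjusted p = 0.0329) and Smad7 (0.44). Whether the response differs between the indexes was not tested. With index as a covariate over all livers, none of the 9 was called by edgeR.

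Hamp and Hamp2 did change on diet while the 9 targets gave no call. In this comparison 2656 of all 13005 genes tested rose and 2213 fell. Hamp had 524 ± 133 CPM (n = 9) on low-fat and 168 ± 91.9 CPM (n = 7) on Western diet and fell by 1.64 (log2, SE 0.344, adjusted p = 0.000632). Hamp2 fell by 1.91 (SE 0.422, adjusted p = 0.00100) and Bmper rose by 1.83 (SE 0.351, adjusted p = 0.000275). Of 8 ligand genes tested 3 rose, Bmp8b by 2.99 (SE 0.467, adjusted p = 3.80e-05), Gdf2 by 0.44 (SE 0.0904, adjusted p = 0.000477) and Bmp5 by 0.33 (SE 0.112, adjusted p = 0.0234). The level of Bmp8b was near 0 on low-fat diet (0 to 0.312 CPM), compared with 0.520 to 1.79 CPM in wild type on Western diet. Of 10 receptor and co-receptor genes 1 rose and 2 fell. Acvrl1, the receptor for BMP9, rose by 1.36 (SE 0.239, adjusted p = 0.000117), and Tfr2 fell by 0.39 (SE 0.106, adjusted p = 0.00588). Smad4, the common partner of the receptor-activated SMADs, fell by 0.22 (SE 0.0654, adjusted p = 0.00884) and was the only one of 5 effectors called. Of 7 antagonists and modulators, 2 rose and 2 fell. The liver's cell markers moved with diet: 9 of 12 stellate, 8 of 10 macrophage and 6 of 12 endothelial markers rose and 7 of 8 hepatocyte markers fell. Also higher were 4 of 6 bile duct markers, 2 of 6 lymphocyte markers and all 8 proliferation genes. Their part in the levels of the targets was not tested.

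**Figure D3:**
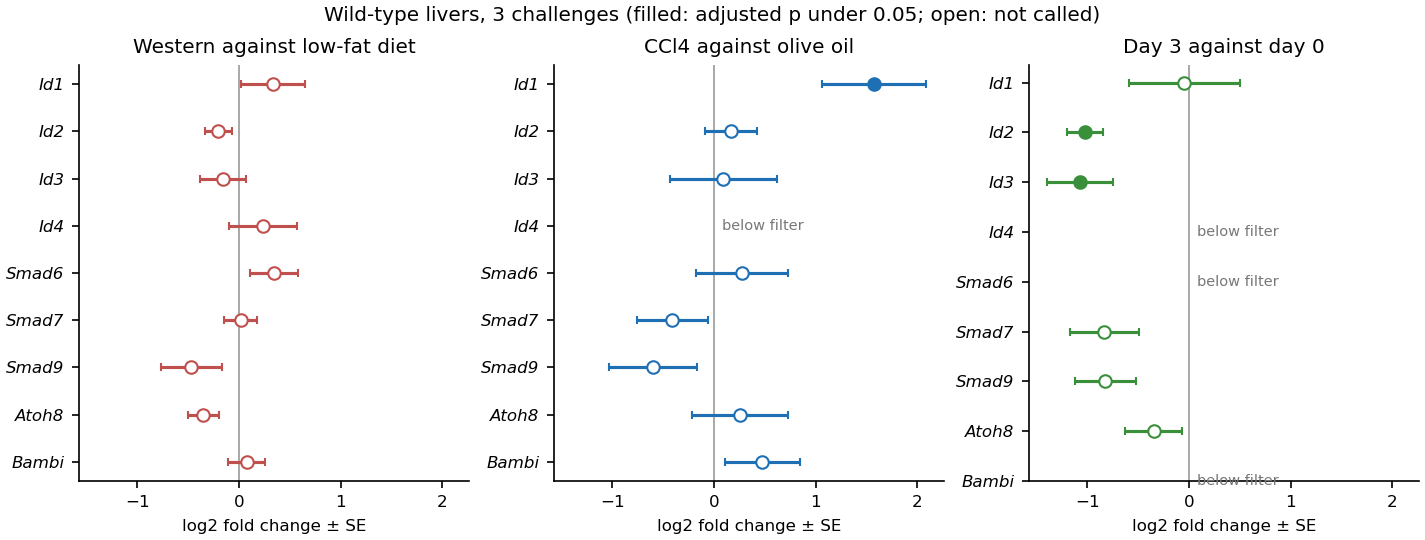
Log2 fold change ± SE (horizontal axis) of the 9 genes in wild-type livers for Western against low-fat diet, CCl4 against olive oil and day 3 against day 0 of hepatectomy, with filled points for adjusted p under 0.05. Id1 is filled after CCl4 (1.58), Id2 and Id3 are filled after hepatectomy (-1.02 and -1.07), and no point is filled on diet.

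In a joint fit of the 53 libraries the responses of wild-type livers were set against each other. The response of Id2 to CCl4 exceeded that to hepatectomy by 1.18 (log2, SE 0.302, edgeR adjusted p = 0.0130), the only call among the 9 genes, with 6.09% of 12646 genes called. This difference stayed called in 14 fits without 1 liver (1.08 to 1.39). These fits left out wild-type CCl4, day 0 and day 3 livers in turn, and no oil liver. All 9 genes had a higher response to CCl4 than to hepatectomy, by 0.22 to 1.59, and the others were not called. The share of all genes with a higher response is not given here, so this count is a description only. Id4, Smad6 and Bambi were below the filter in the hepatectomy fit, and Id4 also in the CCl4 fit. The wide spread of Id2 between the oil livers of D504 and D505 enters the difference in Id2. So does the i5 index of the hepatectomy livers, which cannot be told apart from day. Between hepatectomy and diet, Id2 differed by -0.83 (SE 0.271, edgeR adjusted p = 0.0728) and no gene was called (background 3.53%), whereas DESeq2 called Id2 (adjusted p = 0.0411). An unadjusted p under 0.05 was found for 3 of the 9 genes. Between CCl4 and diet, edgeR and DESeq2 called none of the 9 (background 16.1%), and 1 had an unadjusted p under 0.05 (Id1, a difference of 1.23, SE 0.588).

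The knockout label gave no call among the targets in any of the 3 challenges. On Western diet edgeR, DESeq2 and limma voom called 0 of 9 and no gene had an unadjusted p under 0.05. Log2 fold changes of labelled knockout against wild type ran from -0.37 (Id4) to 0.04 (Smad7), and 0.0154% of all genes were called. After CCl4, edgeR and limma voom called 0 of 8, with values from -0.44 (Id1) to 0.67 (Smad9) and a background of 0.00857%. DESeq2 gave an adjusted p for 2 of the 8 and called neither, and no gene had an unadjusted p under 0.05. The spread of Smad9 was wide in the labelled knockout livers, from 4.19 to 31.0 CPM, against 8.92 to 13.9 CPM in wild type.

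At day 3 of hepatectomy edgeR, DESeq2 and limma voom called 0 of 6 between labels (background 0.154%), and 2 genes had an unadjusted p under 0.05. Id2 had 82.6, 134, 143 and 139 CPM in the labelled knockout livers (17, 18, 19N and 20), above 4 of the 5 wild-type livers. Its log2 fold change was 0.61 (SE 0.187, edgeR adjusted p = 0.281), and without the filter on low counts it was called (adjusted p = 0.0241). Id1 had 0.812, 4.51, 9.49 and 8.27 CPM in the same livers against 1.07 to 3.09 CPM in wild type, with a log2 fold change of 1.19 (SE 0.534, adjusted p = 0.514). Liver 17 was the lowest of the labelled knockout livers in both genes, and the other 3 lay above every wild-type liver. Smad6, below the filter, had 2.93 ± 1.06 CPM in labelled knockout and 1.40 ± 0.493 CPM in wild-type livers (n = 4 and 5, exact permutation test, p = 0.0238). It was the only one of 12 such tests with an unadjusted p under 0.05.

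**Figure D4:**
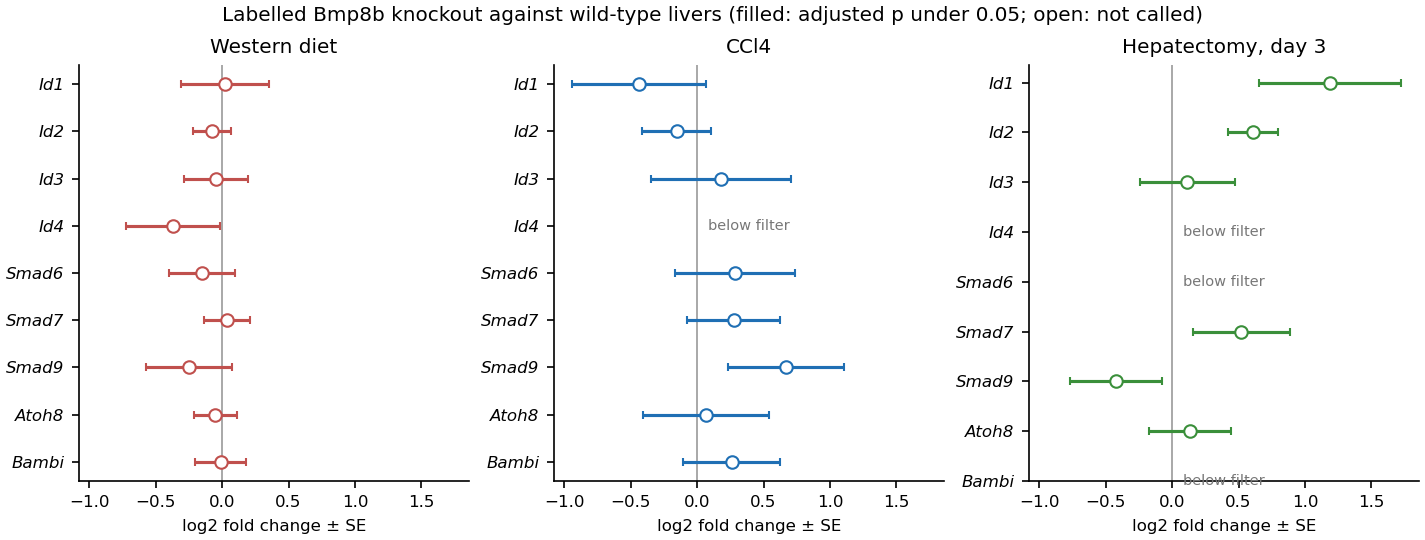
Log2 fold change ± SE (horizontal axis) of the 9 genes in labelled Bmp8b knockout against wild-type livers on Western diet, after CCl4 and at day 3 of hepatectomy. All points are open, so none was called. The widest displacement is that of Id1 at day 3 (1.19).

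The labelled knockout livers were also set against the unchallenged wild-type livers, which are the same controls as above. On Western diet against low-fat, edgeR called none of the 9 genes (background 25.2%), with 2 unadjusted p under 0.05. Atoh8 had a log2 fold change of -0.40 (SE 0.153, edgeR adjusted p = 0.0551), beside -0.35 in wild type, and Smad9 had -0.72 (SE 0.307, adjusted p = 0.0900), beside -0.47. DESeq2 called Atoh8 and limma voom called Id2, Smad9 and Atoh8. The background above is that of edgeR, and the shares of all genes called by DESeq2 and limma voom are not given here. After CCl4, edgeR, DESeq2 and limma voom called 0 of 8 (background 9.3%), with 2 unadjusted p under 0.05. Id1 was 2.20-fold higher than after oil (log2 fold change 1.14, SE 0.475, edgeR adjusted p = 0.149), and with the index as a covariate it was called (1.44, adjusted p = 0.0362). Without labelled knockout liver 35 and wild-type liver 34 the value was 0.88 (adjusted p = 0.229). Within index D504, labelled knockout liver 22 stood against 3 oil livers with a value of 2.29 (SE 0.511), and the lone labelled knockout liver gives no spread of its own.

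At day 3 of hepatectomy Smad9 was lower in the labelled knockout livers than in the wild-type pieces of day 0. It had 5.14, 6.77, 5.93 and 6.67 CPM, compared with 4.31 to 19.8 CPM at day 0, and only the day 0 piece of mouse 16 was as low. The level was 2.37-fold lower (log2 fold change -1.25, SE 0.333, edgeR adjusted p = 0.0167), with 5.0% of all genes called lower. limma voom did not call it (adjusted p = 0.0748). Id3 had -0.96 (SE 0.350, adjusted p = 0.0827) and Id2 -0.41 (SE 0.185, adjusted p = 0.169). Day, label and i5 index all differ in this comparison and cannot be told apart. For Smad9, wild-type livers at day 3 had -0.82 against the same pieces (edgeR adjusted p = 0.0625). Between labels at day 3 Smad9 was not called (-0.42, edgeR adjusted p = 0.771). The difference of the label effect between challenges was not called for any of the 9 genes by edgeR or DESeq2. The backgrounds were 0.0% for CCl4 against diet, 0.0158% for hepatectomy against diet and 0.0395% for CCl4 against hepatectomy. There were 0, 2 and 2 unadjusted p under 0.05. DESeq2 gave an adjusted p for 6 of the 9 genes in the first of these and for all 9 in the others.

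Within groups, livers with more Id1 also had more of several other targets. After subtraction of group means, log2 (CPM + 0.5) of Id1 correlated over 53 livers with Id3 (Pearson r = 0.66, Spearman rho = 0.54, permutation p = 6.0e-05, adjusted 0.000480) and Id2 (r = 0.60, rho = 0.51, permutation p = 0.000120, adjusted 0.000480). Smad7 followed (r = 0.51, rho = 0.42, permutation p = 0.000970, adjusted 0.00259), then Smad6 (r = 0.45, rho = 0.41, permutation p = 0.00540, adjusted 0.00864) and Atoh8 (r = 0.45, rho = 0.41, permutation p = 0.00150, adjusted 0.00300). Adjustment was over the 8 relations, and 5 of 8 passed by Pearson r. The other 3 were Bambi (r = 0.26, rho = 0.35, permutation p = 0.104, adjusted 0.139), Id4 (r = 0.25, rho = 0.23, permutation p = 0.137, adjusted 0.157) and Smad9 (r = 0.10, rho = 0.15, permutation p = 0.377, adjusted 0.377). For Spearman's rho the adjusted p was 0.00292 for Id2 and Id3, 0.0126 for Smad6, Smad7 and Atoh8, 0.0282 for Bambi, 0.170 for Id4 and 0.267 for Smad9.

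In the CCl4 experiment r was 0.84 for Id2, 0.82 for Id3 and 0.77 for Smad7. In the diet experiment these were 0.28, 0.57 and 0.46, and in the hepatectomy experiment 0.56, 0.51 and 0.26. For Smad6 r was 0.49 after CCl4, 0.56 on diet and 0.31 after hepatectomy, and for Atoh8 0.64, 0.36 and 0.22. Bambi had 0.82, 0.06 and -0.02, Id4 had 0.37, -0.05 and 0.36 and Smad9 had 0.29, -0.14 and 0.10. Without oil liver 29 and labelled knockout hepatectomy liver 17, the livers farthest from the median of Id1, r was 0.49 for Id2, 0.58 for Id3, 0.54 for Smad7, 0.47 for Smad6, 0.48 for Atoh8, 0.34 for Bambi, 0.21 for Id4 and 0.08 for Smad9. With these livers left out, Bambi passed too (permutation test of r, adjusted p = 0.0305), beside the genes that passed over all livers. Livers differ in index, depth and cell markers within an experiment, and the part of these in the relations was not tested. Differences in r between experiments were not tested either.

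Over all pairs of the 9 genes, 32 of 36 had a positive r, with a median of 0.31. The share of positive r among pairs of other genes is not given here. These relations are therefore not shown to be particular to the targets. The closest pair was Id2 and Id3 (r = 0.86). By the same measure over 10705 genes, the genes most like Id1 were Id3 (0.66), Ppan (0.60) and Id2 (0.60). The nearest to Atoh8 were Fam20a (0.70), Dnal4 (0.68) and Cdo1 (0.68). Over 10706 genes, those nearest to Smad6 were Rai1 (0.62), Myo1d (0.62) and Fam129b (0.62), and those nearest to Bambi were Fundc2 (0.66), Nlgn2 (0.57) and Ift43 (0.54).

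**Figure D5:**
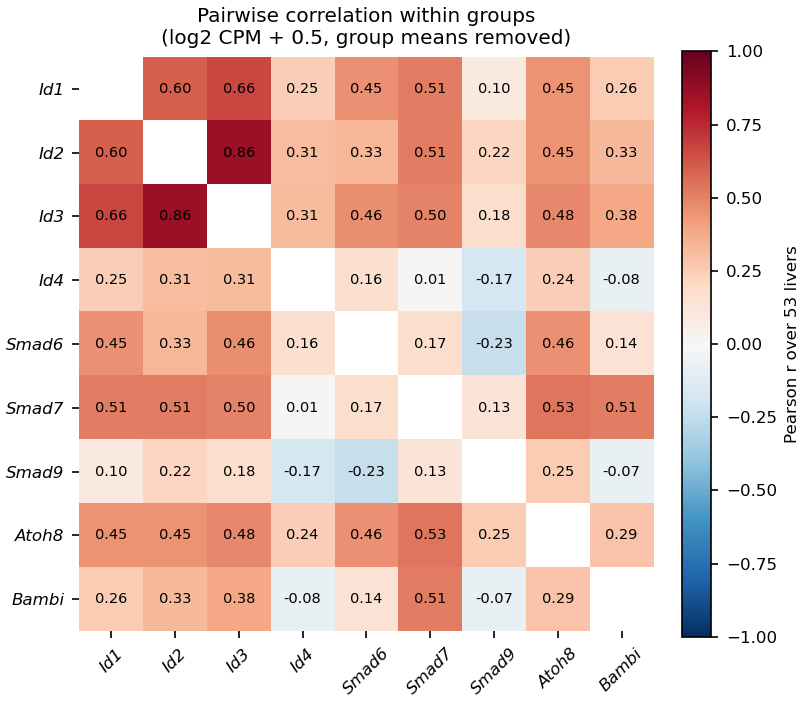
Pearson r (colour and printed value) of log2 (CPM + 0.5) for each pair of the 9 genes over 53 livers after subtraction of group means. Id1, Id2 and Id3 are the closest trio, with r of 0.60 to 0.86, and Smad9 is the gene least like Id1 (0.10).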

How the data were processed

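Per the submitters' processing notes, the authors aligned the reads with TopHat2 2.0.11 to GRCm38 and counted them per gene with HTSeq. The deposited values are raw counts, in 1 table per experiment (38293, 38293 and 53379 genes), with 1 column per liver. Libraries were grouped by GEO's labels. The 9 genes, the pathway and marker lists and the tests were chosen with earlier results of these data known.

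Each experiment was fitted in edgeR 4.0.16 (R 4.3.3) with TMM normalization, a filter on low counts (filterByExpr) and quasi-likelihood tests on 3 group means, two-sided. P-values were Benjamini-Hochberg adjusted over all genes tested, and genes under 0.05 were called. Differences between responses were tested in a joint fit of 53 libraries over 36410 shared genes. Genes below the filter were compared by exact two-sided permutation of log2 (CPM + 0.5), and correlations used 100000 permutations of livers within groups. Alternatives included DESeq2 1.42.0 and limma 3.58.1 voom, other filters and leaving out each liver. In the joint fit, only livers of groups with at most 5 livers were left out. Fits within an i5 index were added after the data were seen. The edgeR fit of each experiment was tested on simulated data; the joint fit and the alternatives were not.

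From other lists, up to 3 called genes with the smallest p were named per comparison, plus Hamp, Hamp2, Bmper and Bmp8b; not all of these are printed, and 1 result is not reported here. Genes most like Id1, Smad6, Atoh8 and Bambi are the 3 with the highest r. Values under alternatives were tabulated only for members with an unadjusted p under 0.05, plus Id1 in wild-type comparisons, a restriction made after the values were seen. P-values set a difference or a relation against the spread between these livers, and intervals were not computed for single libraries.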

Additional observations from a re-analysis of the deposited data

Results flagged for a closer look

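Of 81 sets of values (9 genes in 9 groups), 13 had 1 liver far from the rest by Dixon's test, where chance gives about 1 in 20. Low-fat liver 18 was high in Id1 (8.85 CPM, others at most 2.95) and Smad7 (15.7 CPM, others at most 9.38). Labelled knockout Western diet liver 35 was high in Id1 (9.87 CPM, others at most 4.13) and Bambi (5.07 CPM, others at most 3.75), and liver 01 of that group in Smad9 (9.94 CPM, others at most 6.45). Labelled knockout CCl4 liver 35 was high in Smad7 (15.8 CPM, others at most 9.93) and Atoh8 (65.3 CPM, others at most 18.8), and wild-type CCl4 liver 04 in Smad9 (13.9 CPM, others at most 9.19). At day 3 of hepatectomy, wild-type mouse 13N was high in Id2 (124 CPM, others at most 77.1) and Id3 (61.1 CPM, others at most 26.1). In the same group mouse 14N was low in Id1 (1.07 CPM, others at least 2.63) and mouse 15 low in Bambi (0.263 CPM, others at least 1.79). Labelled knockout mouse 17 was low in Id2 (82.6 CPM, others at least 134).

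The response of Id2 to CCl4 and to hepatectomy differed between the experiments, by 1.18 on the log2 scale (edgeR adjusted p = 0.0130). The i5 index enters this difference. In hepatectomy, index and day cannot be told apart, index D503 held CCl4 livers only, and Id2 differed between the oil livers of D504 and D505.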

How the results depend on the processing

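Counts of called targets moved under these settings. The shares of all genes called in the same fits are not given here, except for diet in wild type within D501 and D502. The counts below therefore describe how the settings moved the calls and are not results about the targets. For Western against low-fat diet in wild type, 0 became 1 with limma voom, 4 within index D501 and 2 within D502. For labelled knockout against low-fat, 0 became 1 with DESeq2, 3 with limma voom, and 1 with 2 groups only, without livers 32, 36 and 01, within D501 and within D502. For CCl4 in wild type, 1 became 0 with 2 groups only and within D505. For labelled knockout against oil, 0 became 1 with the index as covariate. The fits of that comparison within D504 and within D505 held 1 labelled knockout liver each (22, and 35, which stood apart), so their counts are left out. Between labels at day 3 of hepatectomy, 0 became 1 without a filter, and for labelled knockout against day 0, 1 became 2 without a filter and 0 with limma voom. For the response to hepatectomy minus that to diet, 0 became 1 with DESeq2 and without livers 34 and 35. Leaving out 1 liver gave 0 to 1 calls for diet in wild type, 0 to 2 for labelled knockout against low-fat, 0 to 1 for CCl4 in wild type and in labelled knockout against oil, 1 to 3 for hepatectomy in wild type, 0 to 1 between labels at day 3, 1 to 2 for labelled knockout against day 0 and 0 to 1 for hepatectomy minus diet.

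Direction turned for Id1 on diet within D501 (-0.12), for Atoh8 in labelled knockout against low-fat within D502 (0.13), and for Id1 after hepatectomy with limma voom (0.12), with a replicate block over 3 identical mouse names (0.48) and on leaving out 1 liver (-0.28 to 0.25). Over all 123 pairs of gene and comparison, 50 of 843 values under other settings changed sign, none of a called gene, and 38 pairs changed sign on leaving out 1 liver. The causes were not tested. With the mouse number as a replicate block over 10 wild-type hepatectomy livers, Id2 had -1.04 and Id3 -1.12, with 2 genes called as without it, and over the 3 identical names -1.14 and -1.30. Same-numbered livers deviated together weakly (r of 0.0324, -0.0124, -0.0206, 0.0756 and 0.0898), and not every liver correlated best with its own number. The r of the livers named 16 (0.0898) and 15 (0.0756) were the highest of all pairs of a day 0 and a day 3 wild-type liver. With so few livers per day, this check cannot decide whether same-numbered livers came from the same mouse. The main fits did not pair livers by number, so their p-values assume separate mice. Depth limited Id4, Smad6, Bambi and Id1, which had few counts per hepatectomy library.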
